A study of Saccharomyces cerevisiae with 75 samples.

Results

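The comparison described here set a yeast strain that lacks both Npl3 and Upf1 against a strain that lacks Upf1 alone, both at 30 °C. Its members were chosen by the strain names in the array titles and are the 2 dye-flipped arrays of 1 extract pair, of 75 arrays and 37 deletion-strain extract pairs in all. On one array the double deletion was labelled with Cy5 and the single deletion with Cy3, and on the other the dyes were exchanged. Both strains carry the upf1 deletion (named Dupf1 in the labels), so the ratio shows what loss of Npl3 (Dnpl3) adds where Upf1 is already missing.

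Npl3 is an SR-like RNA-binding protein of budding yeast, with a domain of arginine- and serine-containing repeats, that binds RNA during transcription and is known for roles in splicing and mRNA export. Upf1, an RNA helicase encoded by the gene NAM7, is a core factor of nonsense-mediated decay, the cytoplasmic pathway that degrades transcripts with premature stop codons, among them unspliced transcripts that have left the nucleus. Few yeast genes have introns, and genes for ribosomal proteins are a large share of those that do. A strain without Upf1 therefore lets RNA be measured that this decay pathway would otherwise remove.

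The series used 2-colour spotted arrays made to follow splicing in strains that lack SR-like proteins, Upf1 or both. Each value is a log2 ratio of 2 strains on 1 array. The 2 titles of a dye-flipped pair write the strains in opposite order, but both arrays were read in the same direction, with no sign changed between them. In a comparison named here as one strain over another, the strain named first is the numerator. The comparisons set most often beside the 30 °C pair are npl3 deletion over wild type at 30 °C (7 extract pairs) and 4 single extract pairs after 15 min at 37 °C. Those 4 are double deletion over npl3 deletion, npl3 deletion over upf1 deletion, double deletion over wild type and upf1 deletion over wild type. Single extract pairs at 30 °C of upf1 deletion against npl3 deletion, double deletion against npl3 deletion and double deletion over wild type are used too, as is upf1 deletion over wild type after 30 min at 37 °C. The spread behind the tests also comes from replicated pairs at 30 or 37 °C of other deletions over wild type. These lack npl3, gbp2, hrb1, or both gbp2 and hrb1. The labels give genotype, temperature and time, with no time for the 30 °C cultures, and no strain background, number of clones or number of cultures.

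Each array carried 1536 probes at 6 spots each, and 1457 of them had a gene name, covering 982 genes. For 230 genes, 98 of them for ribosomal proteins, 3 probes stood in a fixed print order. Subtracting the third printed probe's log2 ratio from the second's gives the quantity named probe contrast below. The sources used here do not say what each probe matches, so a contrast away from 0 shows that 2 probes of a gene changed unequally and not which part of the RNA changed. Probes to the coding parts of paralogous genes may share signal, which was not tested.

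The array with the double deletion in Cy5 had values at 8926 spots, and the array with it in Cy3 at 8781 spots. Their medians were -0.011 and 0.022, and spots of 1 probe had a median SD of 0.259 and 0.252. Over all probes the 2 arrays correlated at 0.416, a description over probes of the same RNA extracts, and 12 of the 36 dye-flipped pairs of the series had a higher value (median 0.302, 10 pairs below 0). The SD over probes was 0.348 for the mean of the 2 arrays and 0.224 for 0.5 times their difference.

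**Figure D1:**
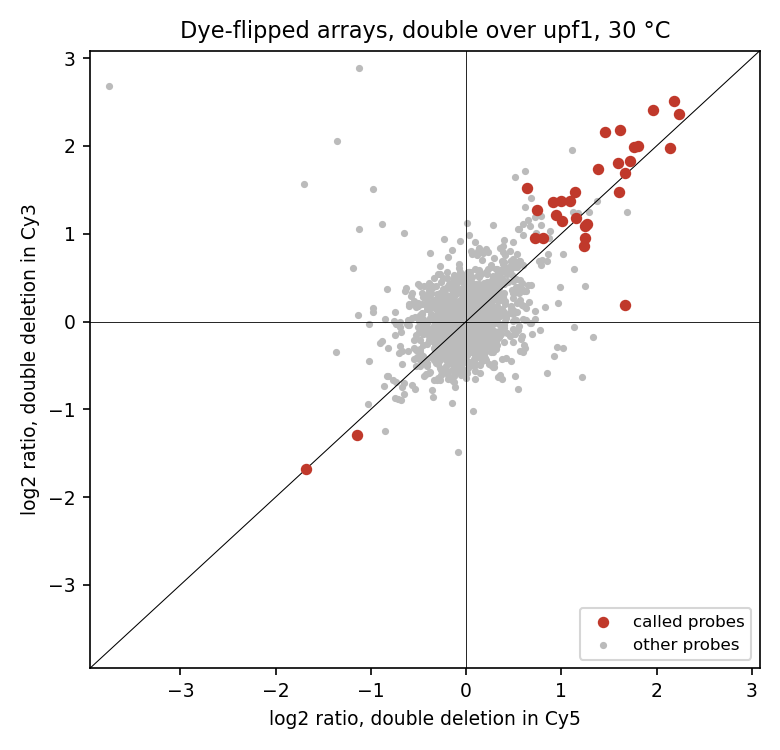
Log2 ratio of the double deletion over the upf1 deletion at 30 °C on the array with the double deletion in Cy5 (horizontal) and in Cy3 (vertical), 1 point for each of 1536 probes, with the 31 called probes in red and the diagonal in black. The 29 red points above 0 are high on both arrays except the second probe of PCH2 (1.67 and 0.19), and the 2 red points below 0 are HTA1 and NPL3.

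One extract pair of the series stands apart and bears on every test below. The 7 pairs of npl3 deletion over wild type at 30 °C carry no replicate number in the labels and are numbered here in accession order, as names only. In replicate 3 NPL3 was at 1.47, against -2.19 to -1.68 in the other 6 pairs of that label. It was left out of the fit behind the values below. The double deletion's 1 extract pair has no spread of its own and borrows that of the replicated groups. Replicate 3 does not enter the 30 °C estimates of the double deletion over the upf1 deletion, but it enters their standard errors when it is kept. The counts over all probes and all contrasts are therefore given without it and with it as labelled, and all other counts of calls, by list, class, subunit or overlap, are without it.

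NPL3 itself was low in the double deletion. Its probe was at -1.14 with the double deletion in Cy5 (6 spots from -1.91 to -0.64) and at -1.29 with it in Cy3 (6 spots from -1.59 to -0.76). All 12 spots were below 0 on the 2 arrays, and the mean of the arrays was -1.22. As this probe was used to check the direction of the ratio, its low value is a description and not a test, although it is among the probes counted as called below. In the npl3 deletion over wild type at 30 °C NPL3 was at -1.95 (SD 0.21, n = 6 without replicate 3). The value in the double deletion over the upf1 deletion was 0.74 nearer to 0.

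NAM7, which encodes Upf1, was at -0.21 and 0.06 on the 2 arrays, on either side of 0. As both strains are labelled as lacking Upf1, this ratio cannot show whether its RNA was absent. The genes of the other SR-like proteins of yeast, which shuttle between nucleus and cytoplasm with mRNA, were not called. GBP2 was at 0.62 with the double deletion in Cy5 and at 1.72 in Cy3, where 1 of its 6 spots read 6.81 (adjusted p = 0.0706), and with the median of the spots in place of the mean it was at 0.67 (adjusted p = 0.999). HRB1 was at 0.13 and 0.16 (adjusted p = 1.00).

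Loss of Npl3 without Upf1 was followed by higher signal at one class of probes above all, the second printed probe of ribosomal protein genes. Of 1536 single probes, 29 were higher in the double deletion (1.89%) and 2 were lower (0.13%), with limma at an adjusted p under 0.05. Of the 29, 25 belonged to 23 ribosomal protein genes (11 of the small and 12 of the large subunit), 27 were second printed probes, 2 were the first and 0 were the third. All 31 called probes had the same sign on both arrays, as did 934 of the 1536. With replicate 3 kept as labelled 0 probes were called (60 at an unadjusted p under 0.05, against 82 without it), and 36 were called in a fit of 9 extract pairs alone, those whose array titles share the leading number of this pair, called its batch below. A model of all strains as a network called 77 probes, and the array with the double deletion in Cy3 alone 51. More or fewer cells of a kind and more or less RNA per cell cannot be told apart in these bulk extracts.

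The 2 largest rises were in small-subunit genes. The second probe of RPS19B was at 2.18 with the double deletion in Cy5 and at 2.51 in Cy3, a rise of 2.35 ± 0.41 (SE, adjusted p = 0.00269). That of RPS14B was at 2.231 and 2.365, a rise of 2.298 ± 0.267 (adjusted p = 4.35e-05). Both genes were high on both arrays, and the npl3 deletion over wild type at 30 °C was at 1.86 (SD 0.53, n = 6) for RPS19B and 2.06 (SD 0.32, n = 6) for RPS14B.

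RPS9A had a second probe at 2.14 and 1.98, a rise of 2.06 ± 0.41 (adjusted p = 0.00679). RPS21B was at 1.61 and 2.18, and its rise of 1.90 ± 0.44 (adjusted p = 0.0177) was not called in the batch alone (adjusted p = 0.15) or with batch as a block (1.62, adjusted p = 0.074). Second probes of RPS0B (1.72 and 1.83), RPS18B (1.60 and 1.80) and RPS7B (1.39 and 1.73) rose as well, with adjusted p of 0.00634, 0.0091 and 0.0124. In the batch alone the rise of RPS18B was not called (adjusted p = 0.178). These genes encode proteins of the 40S ribosomal subunit, which reads the mRNA.

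Among large-subunit genes, RPL17B was at 1.97 and 2.41 and its paralog RPL17A at 1.77 and 1.99. Their second probes rose by 2.19 ± 0.38 (adjusted p = 0.00269) and 1.88 ± 0.35 (adjusted p = 0.006), so both copies of this gene pair were called. RPL23B stood at 1.46 and 2.16 and rose by 1.81 ± 0.40 (adjusted p = 0.0124; 0.0801 in the batch alone). RPL18B was at 1.67 and 1.69, on 3 and 6 spots, and rose by 1.68 ± 0.29 (adjusted p = 0.00269). The other called ribosomal second probes lay lower, from 0.84 for RPS29B to 1.54 for RPL21B.

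**Figure D2:**
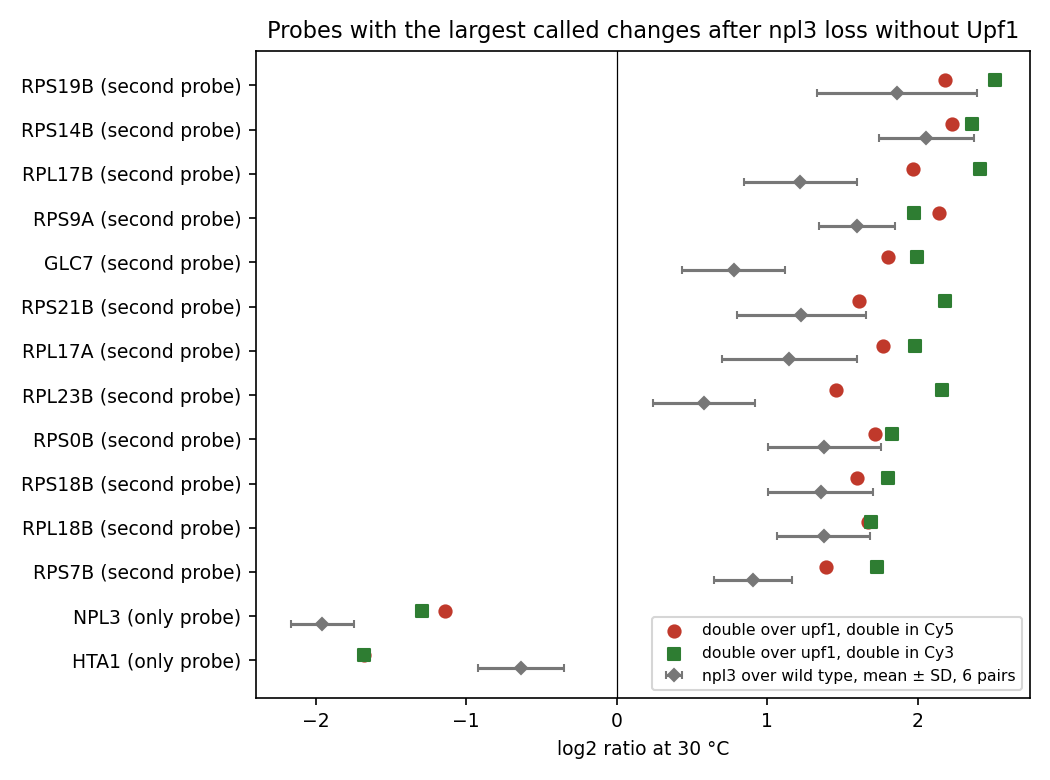
Log2 ratio at 30 °C of the 12 largest called rises and the 2 called falls, with the double deletion over the upf1 deletion on each array (circle, double deletion in Cy5, and square, in Cy3) and, below it, the npl3 deletion over wild type (grey diamond, mean ± SD of 6 extract pairs). All 12 rises lie at or above 1.39 on both arrays, and HTA1 lies further below 0 than the grey point while NPL3 lies nearer to 0.

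Outside the ribosomal protein genes 4 second probes rose. GLC7, which encodes the catalytic subunit of protein phosphatase 1, was at 1.80 and 1.99, a rise of 1.90 ± 0.43 (adjusted p = 0.0138). This gene has 4 printed probes, and its other probes, including the fourth, which is outside the probe contrast, were not called. NOG2, a GTPase of large-subunit assembly, was at 0.99 and 1.37 (adjusted p = 0.0091), and DID4, a subunit of the ESCRT-III complex of endosomal sorting, was at 0.81 and 0.96 (adjusted p = 0.0124). PCH2, an ATPase of the meiotic checkpoint, was called as well (0.93, adjusted p = 0.0259), but its 2 arrays read 1.67 and 0.19, with SDs among spots of 1.48 and 1.35. The first 3 genes were high on both arrays, and PCH2 on 1 of them. Wide scatter among spots was not limited to PCH2. With the double deletion in Cy3, second probes of RPS7B (SD 1.93), RPS19B (1.20), RPS9A (1.06) and RPL18B (1.02) had it too.

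The first printed probe rose in 2 genes whose second probe rose too. That of RPS14B was at 1.27 and 1.12 (1.19 ± 0.26, adjusted p = 0.0124), and that of RPS9A at 1.24 and 0.86 (1.05 ± 0.24, adjusted p = 0.0137). In the npl3 deletion over wild type they were at 0.73 (SD 0.15, n = 6) and 0.16 (SD 0.17, n = 6).

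HTA1, one of the genes for histone H2A, was the lowest probe of the comparison. It was at -1.68 on both arrays, with SDs among its 6 spots of 0.24 and 0.07, and fell by 1.68 ± 0.28 (adjusted p = 0.00269; 0.136 with replicate 3 as labelled). In the npl3 deletion over wild type at 30 °C HTA1 was at -0.63 (SD 0.29, n = 6, from -0.92 to -0.26), so the single value without Upf1 lay below all 6. As HTA1 was picked for being lowest without Upf1, that place has no weight as a comparison. The difference of -1.05 ± 0.31 was not called (p = 0.00264, adjusted p = 0.579).

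Beyond HTA1 and NPL3, 13 other probes were at least 1.5-fold lower on both arrays (15 of 1536 with those 2, 0.977%, against 56 higher, 3.65%), and none of the 13 passed the test. Among the 10 lowest of them were CUP1-2 (-0.86 and -1.25), a copper metallothionein, GPD1 (-0.72 and -0.88), an enzyme of glycerol synthesis, TDH1 (-0.86 and -0.74), a glyceraldehyde-3-phosphate dehydrogenase, and GCN4 (-0.76 and -0.66), the activator of amino acid synthesis genes. The third probes of ribosomal protein genes made up 5, which were RPS11B (-0.74 and -0.87), RPS7B (-0.68 and -0.89), RPL42B (-0.65 and -0.82), RPS22B (-0.83 and -0.62) and RPL31A (-0.82 and -0.62). The last of the 10 was a probe without a gene name (-1.03 and -0.94).

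Of the 25 called rises in ribosomal protein genes, 23 were at the second printed probe and 2 at the first, and 0 falls were called. Over the 98 ribosomal genes with 3 ordered probes the median log2 ratio was -0.06 for the first probe, 0.47 for the second and -0.19 for the third. The second probe was above 0 in 96 of them, the first in 39 and the third in 24. Over the other 132 genes the medians were 0.01, 0.04 and -0.07, and the second probe was above 0 in 79.

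**Figure D3:**
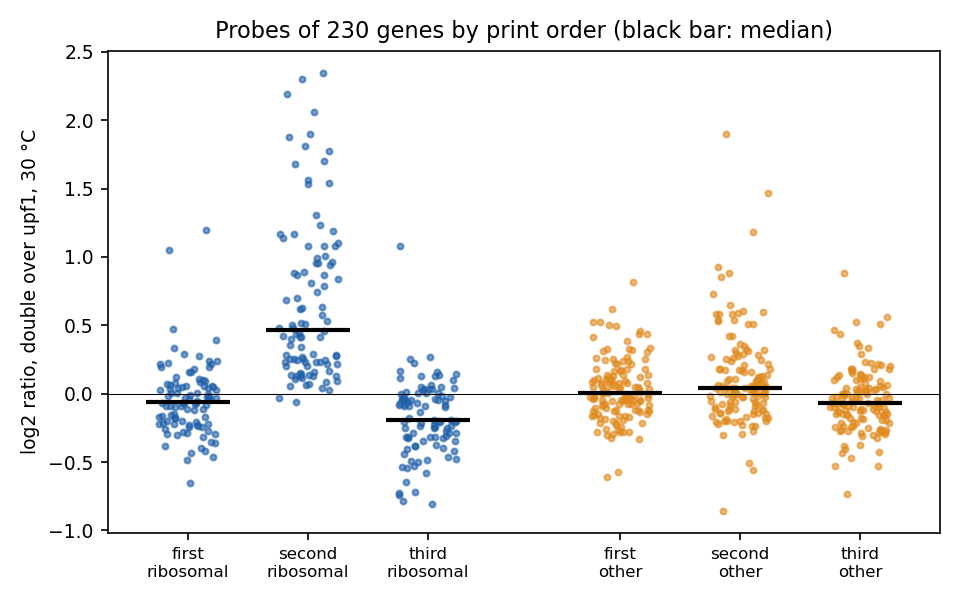
Log2 ratio of the double deletion over the upf1 deletion at 30 °C (mean of 2 arrays) for the first, the second and the third printed probe of 98 ribosomal protein genes (blue) and 132 other genes (orange), 1 point a gene, with the median as a black bar. Of the blue points those of the second probe sit highest, at a median of 0.47, and those of the third lowest, at -0.19.

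Taking the second minus the third probe within each gene, 33 of 230 contrasts rose (14.3%) and 0 fell (0.0%) in the double deletion, with limma at an adjusted p under 0.05 (53 at an unadjusted p under 0.05). Ribosomal protein genes gave 29 of these, 15 of 44 small-subunit and 14 of 54 large-subunit genes, and the other 4 were GLC7, NOG2, PCH2 and DID4. The median contrast was 0.71 over ribosomal genes (0.72 and 0.80 on the 2 arrays) and 0.17 over other genes (0.12 and 0.22). The contrast was above 0 on both arrays in 83 of 98 ribosomal genes and 58 of 132 other genes. With replicate 3 kept as labelled 1 contrast was called, that of RPL23B (adjusted p = 0.0291), the batch alone gave 31 and the network model 74.

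RPS19B had the highest contrast, at 2.10 with the double deletion in Cy5 and 2.74 in Cy3 (2.42 ± 0.43, adjusted p = 0.000489). RPL23B followed at 2.33 and 2.38 (2.36 ± 0.41, adjusted p = 0.000489) and RPS7B at 2.07 and 2.63 (2.35 ± 0.41, adjusted p = 0.000489). For RPS19B the third probe stood near 0 (-0.07), while for RPL23B (-0.55) and RPS7B (-0.79) it was below 0. The third probe was itself called in 0 genes, and in 28 of the 33 genes with a called contrast its value was below 0.

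Contrasts above 2 were also seen for RPS21B (2.16 and 2.39), RPL17B (1.97 and 2.46), RPL17A (1.77 and 2.63), RPS14B (1.89 and 2.39) and RPS18B (1.84 and 2.21), with adjusted p from 0.000489 to 0.00747. RPS18B was not called in the batch alone (adjusted p = 0.0597). RPS9A (2.08 and 1.84), GLC7 (1.97 and 1.70), RPS0B (1.81 and 1.80) and RPS11B (1.53 and 1.97) completed the 12 largest. The 33 called contrasts ranged from 0.95 to 2.42, and 22 of these genes had a called second probe as well.

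Values of paralogous ribosomal protein genes are set side by side here, and the difference between copies was not tested. RPS18B was at 2.02 and RPS18A at -0.13 ± 0.43 (SE), RPS21B at 2.28 and RPS21A at 0.33 ± 0.30, RPS19B at 2.42 and RPS19A at 0.49 ± 0.37, and RPS14B at 2.14 and RPS14A at 0.37 ± 0.44. The A copies of these 4 were not called (adjusted p from 0.526 to 0.935). For RPL43 the A copy was higher, with RPL43A at 1.71 and RPL43B at -0.19 ± 0.32. Both copies were called for RPL17, RPL23, RPL35, RPS7 and RPS10. In other pairs the copy that was not called had a value as high or higher, with RPL13A at 0.98 and RPL13B at 0.98, RPS24A at 0.95 and RPS24B at 1.20, and RPS8B at 0.97 and RPS8A at 1.06 (adjusted p of RPL13B, RPS24B and RPS8A from 0.0511 to 0.0602).

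The 1 contrast (0.435%) that was at least 1.5-fold below 0 on both arrays was that of IAI11 (-0.70 and -0.89), which did not pass the test (adjusted p = 0.367). Among genes often used to follow splicing, RPS14B was called and 10 others were not, beside 14.3% called over all contrasts. ACT1, which encodes actin and has an intron, had a contrast of 0.15 and 0.68 (adjusted p = 0.656), and its second probe was at 0.36 and 0.84 (adjusted p = 0.296). RPL30, whose protein represses splicing of its own transcript, was at 0.51 and 1.28 (adjusted p = 0.35), and RPL28, a known decay substrate when unspliced, at -0.35 and 0.40 (adjusted p = 0.987). YRA1, an mRNA export factor, was at 0.31 and 0.26, and TUB1, alpha-tubulin, at -0.08 and 0.26. RPS17A, RPS17B, RPL22A, RPL22B and RPS14A lay between 0.31 and 0.64 (adjusted p from 0.348 to 0.677).

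Of 17 gene lists, 4 held a called probe, beside 31 of 1536 over all probes. Genes whose transcripts are reported as decay substrates had 4 called rises and 0 falls among 35 probes of 13 genes, at a median of -0.02 (all probes -0.01). The 4 were the first and second probes of RPS14B and the second probes of RPS10A (1.25 and 0.95) and RPL20B (1.25 and 1.08), and HAC1, REC107 and GCR1 of the same list had none. The SR-like list held NPL3, low as described above, the cytoskeleton and trafficking list the rise of GLC7 among 83 probes, and the meiotic list the rise of PCH2 among 31 probes. The last of these rested on 1 array.

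Factors that act on RNA were themselves not called at this precision. Spliceosome factors had 0 calls among 70 probes of 64 genes (median -0.04, from -0.53 to 0.41), and the U1 snRNP and cap-binding list 0 among 18 (median 0.01). The value of -0.53, for the third probe of SMD2, is the mean of arrays that disagreed (-3.74 and 2.68). Decay factors (12 probes), the exosome and Ski complex (18), mRNA export (26) and chaperones (9) had 0 calls each, at medians from -0.03 to 0.11. Among the listed mating-type genes, MFA1 and MFA2 of type a were at -0.13 and -0.42, and STE3, MF(ALPHA)1 and MF(ALPHA)2 of type alpha at -0.12, -0.01 and 0.07. None of these 5 was called, nor was MATALPHA1, which is in neither list (-0.73 and -0.68), and the 13 respiratory, 6 carbon metabolism, 4 pheromone response and 3 amino acid probes had 0 calls as well.

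The same quantity could be read after 15 min at 37 °C from 4 other extract pairs, along 2 paths that share no array with the 30 °C pair. One path adds double deletion over npl3 deletion to npl3 deletion over upf1 deletion, and the other subtracts upf1 deletion over wild type from double deletion over wild type. Whether the paths share RNA extracts is not stated in the labels. NPL3 was at -1.21 and -1.35 along the 2 paths and called lower (adjusted p = 0.0021). NAM7 was at -0.51 and 0.88, on either side of 0, and was not called (adjusted p = 0.992).

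At 37 °C 51 probes were called higher (3.32%) and 3 lower (0.195%), and 56 contrasts higher (24.3%) and 0 lower (0.0%). With replicate 3 kept as labelled these became 10 probes and 0 contrasts (52 contrasts at an unadjusted p under 0.05). Of the 31 probes called at 30 °C, 27 were called at 37 °C with the same sign, which is 87.1% of the 30 °C calls and 27 of the 54 calls at 37 °C. Of the 33 contrasts 31 were, which is 93.9% of the 30 °C and 55.4% of the 37 °C calls, including all 29 of ribosomal protein genes, with GLC7 and DID4. PCH2 (-0.22 and 0.55) and NOG2 (0.13 and 0.15) were the exceptions. Both tests used the same fit and the same spread for each feature, so the overlap of their calls is not independent agreement. Over genes, the contrasts at 30 °C correlated at 0.831 with the mean of the 37 °C paths, a description over 230 genes measured on the same kind of array.

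The leading genes were high at both temperatures. RPS21B had contrasts of 3.03 and 2.49 along the 37 °C paths, against 2.28 at 30 °C, and RPS9A 2.58 and 2.90, against 1.96. RPL17A (2.35 and 2.50), RPL18B (2.28 and 2.67) and RPS7B (2.31 and 2.22) were among the 6 largest of the 37 °C calls, as was RPS0A (2.49 and 2.45), whose 30 °C contrast of 1.46 was not called (adjusted p = 0.0701). HTA1 fell at 37 °C too, to -1.84 and -1.95 along the 2 paths (adjusted p = 0.000302). The difference between the temperatures was not tested.

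SKY1, which encodes a protein kinase that phosphorylates SR-like proteins, Npl3 among them, was called lower at 37 °C (-1.05 and -0.94, adjusted p = 0.033). At 30 °C its probe was at -0.03 and 0.09 on the 2 arrays (adjusted p = 1.00). The contrast of RPL30 was called at 37 °C (1.67 and 1.58, adjusted p = 0.0231), and so was the second probe of ACT1 (1.13 and 1.23, adjusted p = 0.00135). None of these 3 had passed the test at 30 °C.

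**Figure D4:**
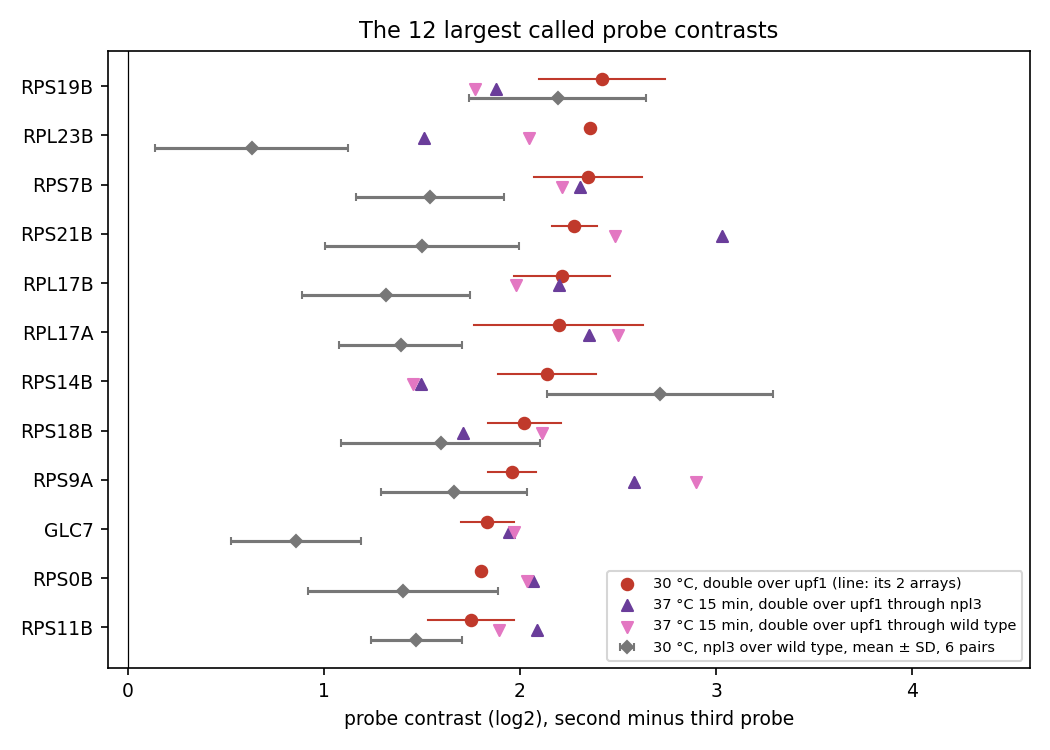
Probe contrast (log2, the second minus the third printed probe) of the 12 genes with the largest called contrasts at 30 °C: the double deletion over the upf1 deletion at 30 °C (red point, mean, with a line between its 2 arrays), the same quantity after 15 min at 37 °C along 2 paths (triangles), and the npl3 deletion over wild type at 30 °C (grey diamond, mean ± SD of 6 extract pairs). All values lie above 0, and RPL23B has the widest gap between the red point (2.36) and the grey one (0.63).

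Another reading, at 30 °C in a batch with other titles, chains the single extract pairs that compare each strain with the npl3 deletion. There NPL3 was at -0.90 and NAM7 at -1.45, although both strains lack Upf1, and the 2 arrays of one of those pairs correlated at -0.05 over probes. Of the 33 called contrasts 32 had the same sign in it, and DID4, at -0.16, was the exception. The median contrast in this reading was 1.47 over ribosomal genes and 0.73 over all 230 genes. Values above 0 were thus common in it, and the count of 32 carries little weight. By its titles, the batch of this reading also holds replicate 3 of the npl3 deletion over wild type.

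Whether loss of Npl3 acted differently without Upf1 than with it was tested as the double deletion over the upf1 deletion minus the npl3 deletion over wild type at 30 °C. Limma called 0 of 1536 probes (0.0%, 35 at an unadjusted p under 0.05) and 0 of 230 contrasts (0.0%, 14 unadjusted), and 0 of each with replicate 3 kept as labelled. Other settings called a few: 2 probes and 4 contrasts with the Cy5 array alone, 5 probes and 1 contrast with the Cy3 array alone, 1 probe in the network model and 1 contrast without replicate 7. The smallest adjusted p was 0.494 for probes and 0.174 for contrasts. The median SE of this difference was 0.293 for a probe and 0.414 for a contrast, and with 1 extract pair a difference as large as 1.73 on the log2 scale, that of RPL23B, did not pass.

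Median contrasts in the 2 comparisons lay close together, at 0.71 in the double deletion over the upf1 deletion and 0.67 in the npl3 deletion over wild type for ribosomal genes, and at 0.17 and 0.15 for other genes. In the 2 npl3 deletion pairs of the same batch the ribosomal medians were 0.86 and 0.62. Of the 33 called contrasts 30 were larger than the mean of the npl3 deletion over wild type. As the 33 were chosen for being high without Upf1, that count has no weight as a comparison. Over all 98 ribosomal genes the difference was above 0 in 59, with a median of 0.13, and over the other 132 genes it was above 0 in 58, with a median of -0.04.

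RPL23B had the smallest p of the contrasts. It was at 2.33 and 2.38 on the 2 arrays of its 1 extract pair, both above the 6 npl3 deletion pairs. Those 6 ranged from -0.01 to 1.37 (mean 0.63, SD 0.49). As RPL23B was picked for its p, its place above them is a description. The difference was 1.73 ± 0.45 (limma, p = 0.000755, adjusted p = 0.174). GLC7 was at 1.83 against 0.86 (SD 0.33, n = 6), a difference of 0.98 ± 0.44 that did not pass (adjusted p = 0.789). In the other direction RPS14B was at 2.14 against 2.71 (SD 0.57, n = 6), with a difference of -0.58 ± 0.57 (adjusted p = 0.988). Of the 230 contrasts, 43 lay above the highest and 38 below the lowest of the 6 pairs, beside 0.0% called.

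**Figure D5:**
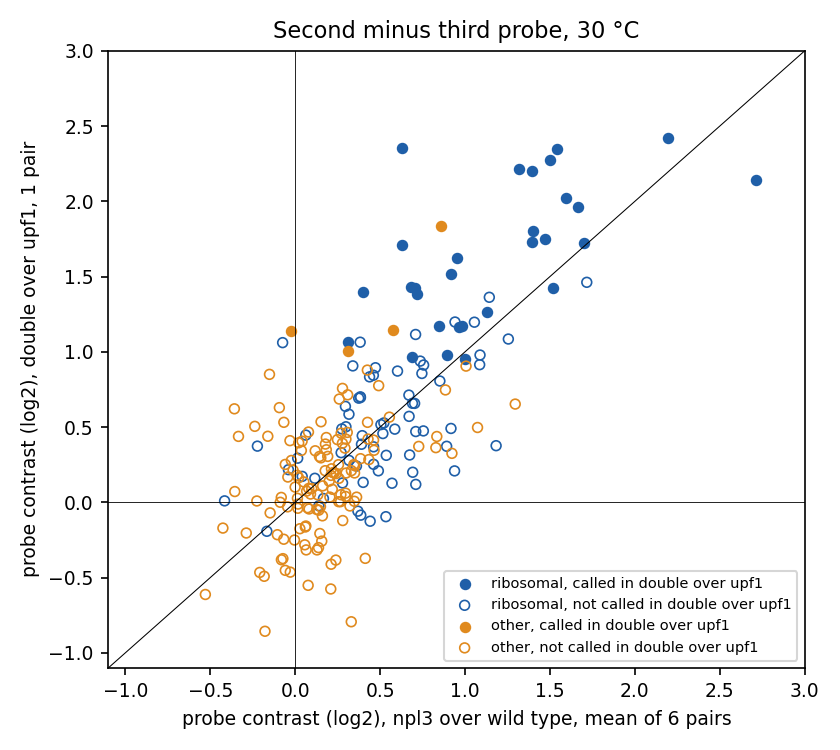
Probe contrast (log2) of 230 genes at 30 °C in the double deletion over the upf1 deletion (vertical, 1 extract pair) and in the npl3 deletion over wild type (horizontal, mean of 6 extract pairs), ribosomal protein genes in blue, other genes in orange, filled where called on the vertical axis, with the diagonal in black. Points gather along the diagonal, and RPL23B is the filled blue point farthest above it (2.36 and 0.63).

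The upf1 deletion itself, which is the denominator of the comparison, was set against wild type only after shifts to 37 °C. After 15 min the 33 genes had contrasts from -0.57 to 1.05 in the upf1 deletion over wild type, at a median of 0.14 (0.08 over all 230 genes). After 30 min they ranged from -0.27 to 0.75, at a median of 0.34 (0.16 over all). RPL18B (1.05), RPS9A (0.74) and RPS14B (0.70) were highest of the 33 after 15 min, and PCH2 (-0.57) and DID4 (-0.29) lowest.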

How the data were processed

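The authors' deposited values are log2 ratios per spot, read as log2 from their range since the table states no scale. Dyes, acid phenol extraction and aminoallyl labelling are per the labels. The sources used here give no background correction, normalization, ratio direction or genome build. Direction was taken from the labels and checked on the NPL3 probe. No intensities were used, so the number of arrays limits the precision.

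Spots were averaged per probe and dye-flipped arrays per extract pair. Limma 3.58.1 (R 4.3.3; lmFit, eBayes, 1 coefficient for each of 21 groups) was fitted to 36 extract pairs with 15 residual degrees of freedom, leaving out replicate 3 of the npl3 deletion over wild type at 30 °C. Benjamini-Hochberg adjustment ran over all 230 contrasts or all probes, with calls at an adjusted p under 0.05. The labels do not say whether extract pairs are separate cultures; if not, the spread behind each p-value may be technical. The script was tested on simulated data.

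Batches follow the leading number of the array titles. Print order came from spot positions, with 1119 of 1123 neighbouring wells of different genes in locus-tag order. Gene names come from the platform's table. Named genes were NPL3, NAM7, GBP2, HRB1, the 12 largest called changes each way (filled with changes of at least 1.5-fold on both arrays), the 6 largest at 37 °C, 11 genes used to follow splicing and called list members. Other genes were named after their values were seen. The members, lists and the contrast were chosen with earlier results of these data known.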

Additional observations from a re-analysis of the deposited data

Results flagged for a closer look

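Of 28 sets of values from the npl3 deletion over wild type at 30 °C, 2 held 1 extract pair far from the others by Dixon's criterion, which chance meets in about 5% of groups. Both concern replicate 3 of the 7 pairs. Its NPL3 probe was at 1.47, with a gap of 0.859 of the whole range to the nearest pair. Its median probe contrast was -0.42 (gap 0.795 of the range), against 0.22 to 0.39 in the other 6. Over probes it correlated at -0.66 to -0.45 with those 6, which correlated with each other at 0.41 to 0.71. The 26 sets without that replicate, for the called genes named in the text, held none.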

How the results depend on the processing

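With replicate 3 of the npl3 deletion over wild type kept as labelled, the 31 called probes and 33 called contrasts of the double deletion over the upf1 deletion became 0 and 1, and the 54 probes and 56 contrasts at 37 °C became 10 and 0; the 30 °C estimates do not use that pair, and the residual spread grew (for the second probe of RPS14B the SE was 0.872, against 0.267 without it). A model of all strains as a network, which adds the other 30 °C pairs, gave 77 probes and 74 contrasts, and 1 probe for the difference without and with Upf1. The array with the double deletion in Cy3 alone gave 51 probes, and for the difference 5 probes and 1 contrast; the array with it in Cy5 alone gave 2 probes and 4 contrasts for the difference. Leaving out each other npl3 deletion pair in turn gave 0 to 1 contrasts for the difference, with the 1 seen without replicate 7, and moved no other count past 1.5 times. The sign-turned replicate 3, the batch alone, batch as a block, the median of spots, centring, no filter, a 3-spot minimum and robust eBayes kept every count within that limit, where the batch alone holds no pair after 15 min at 37 °C. The median contrast of 0.34 over all 230 genes lay between 0.295 and 0.426.

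Of the 26 called single features named in the text, 25 were lost with replicate 3 as labelled, all but the contrast of RPL23B. The batch alone lost 4, batch as a block 1 and the array with the double deletion in Cy5 alone 2. NAM7 was at 0.0603 on the array with the double deletion in Cy3, against -0.0752 for the mean. GBP2 passed with that array alone (1.72, adjusted p = 0.00253) and in the network model (0.87, adjusted p = 0.0307). The cause of these changes was not tested. No paired analysis was possible because the labels carry no replicate numbers (those used here are names in accession order) and the comparison holds 1 extract pair, whose 2 arrays are technical; precision at small changes is limited by that.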

Other observations

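Genes with a single probe gave a few further values at least 1.5-fold from 0 on both arrays, named after their values were seen and none of them called. Beside GBP2, higher in the double deletion than in the upf1 deletion were MAL33 (1.37 and 1.37), an activator of maltose genes, FUS3 (1.296 and 1.243), a kinase of the pheromone pathway, ENA1 (0.68 and 1.41), a sodium pump, USE1 (0.87 and 0.96), a secretory SNARE, and SEH1 (0.78 and 0.65), a nuclear pore subunit. KAR2 (-0.65 and -0.70), the Hsp70 of the endoplasmic reticulum, and MATALPHA1 (-0.73 and -0.68), a regulator of alpha-specific genes, were lower. In the npl3 deletion over wild type at 30 °C USE1 was at 1.75, FUS3 at 1.15 and KAR2 at -0.03 (means of 6 pairs).

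For the double deletion over wild type at 30 °C there was a single extract pair, of another batch. Its titles swap the strain order between the arrays relative to the other pairs set against wild type. Read as double deletion over wild type, it had NPL3 at -1.52 and NAM7 at -2.23. By the titles, the batch of this pair also holds replicate 3 of the npl3 deletion over wild type. The pair had a median contrast of 2.11 over ribosomal genes, against 0.71 in the double deletion over the upf1 deletion. The upf1 deletion over wild type, measured only at 37 °C, had ribosomal medians of 0.14 after 15 min and 0.34 after 30 min. These 4 medians come from different batches or temperatures, and their difference was not tested.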
